A study of Homo sapiens with 60 samples.

Results

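A hot-water extract of Glycyrrhizae Radix (licorice root) was compared directly with a hot-water extract of Atractylodis Rhizoma (atractylodes rhizome), each applied at 500 µg/mL for 24 h to SW1783, a human astrocytoma cell line. The members were chosen from the sample labels alone: the 3 licorice high-dose libraries and the 3 atractylodes high-dose libraries, 6 of the 60 RNA-seq libraries of the series. The other 54 libraries of the 22 groups hold further extracts and doses, reference compounds and a vehicle. Of these, the 100 and 20 µg/mL libraries of the same extracts (3 libraries per dose and extract) and the 3 vehicle (DMSO) libraries are used below. The vehicle is 0.1% DMSO in the sample labels and 2% in the series text, and which is right is not settled here. All groups share the cell line, its serum-containing medium and the exposure time. The comparison asks what licorice changes beyond the response that both extracts give.

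Inflammatory signalling in astrocyte-lineage cells runs largely through NF-kB, which is held in the cytoplasm by IkB proteins and released when receptors for interleukin-1, tumour necrosis factor or microbial products are engaged. Its targets include chemokines that draw in neutrophils and monocytes, cytokines, adhesion molecules, and inhibitors such as NFKBIA and TNFAIP3 that switch the pathway off again. Separate programmes answer chemical and metabolic stress: NRF2 drives antioxidant and haem-degrading enzymes, and ATF4 drives amino acid transport and synthesis when translation initiation is restrained.

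Promoter sequences of genes picked from the main groups are given to show motif matches near their starts. They are the 250 bases before the start from RefSeq (GRCh38.p14), written 5′ to 3′ on the gene's own strand, with motif matches on either strand in capitals. RefSeq's table held a promoter for 505 of the 649 list genes tested, and it held 27305 genes in all. The first 3 are the neutrophil chemokine genes CXCL3 (chr4:74038690-74038939, minus strand), CXCL2 (chr4:74099196-74099445, minus strand) and CXCL1 (chr4:73869143-73869392, plus strand), of which CXCL3 and CXCL2 were higher with licorice than with atractylodes and CXCL1 was not called. Capitals mark the NF-kB motif, which matches both strands with an overlap, from 79 bases before the start in CXCL3 and CXCL1 and 78 in CXCL2.
CXCL3: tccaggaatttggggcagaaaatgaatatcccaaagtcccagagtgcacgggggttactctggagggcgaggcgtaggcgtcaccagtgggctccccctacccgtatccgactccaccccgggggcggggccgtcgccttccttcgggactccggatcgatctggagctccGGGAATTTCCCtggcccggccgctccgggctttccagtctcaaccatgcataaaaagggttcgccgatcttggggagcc
CXCL2: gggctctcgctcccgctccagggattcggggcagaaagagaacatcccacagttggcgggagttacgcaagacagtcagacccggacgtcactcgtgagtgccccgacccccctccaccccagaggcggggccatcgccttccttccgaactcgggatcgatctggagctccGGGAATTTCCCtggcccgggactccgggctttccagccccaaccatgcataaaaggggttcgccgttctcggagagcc
CXCL1: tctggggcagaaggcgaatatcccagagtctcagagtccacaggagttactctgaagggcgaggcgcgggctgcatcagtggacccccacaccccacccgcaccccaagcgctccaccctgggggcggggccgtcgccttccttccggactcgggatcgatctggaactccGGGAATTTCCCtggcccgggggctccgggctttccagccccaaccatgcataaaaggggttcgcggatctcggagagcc
All 3 carry the same 11 capital bases. The longest identical run is 37 bases between CXCL3 and CXCL2, 25 between CXCL3 and CXCL1 and 42 between CXCL2 and CXCL1. These promoters are near-copies, so their matches are not independent. The NF-kB motif was found in 6.28% of all genes of the table, in 5 of the 8 chemokine list genes with a promoter there (62.5%) and in 10 of 18 NF-kB feedback genes (55.6%).

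The next 2 are ATF4 target genes that were higher with licorice, CHAC1 (chr15:40953221-40953470, plus strand) and ASNS (chr7:97872409-97872658, minus strand). Capitals mark the ATF4 composite motif TGATGNAA, on the opposite strand in CHAC1, and in CHAC1 also the NF-Y box CCAAT. RefSeq's table held 2 starts for ASNS, and the start shown was picked by its number of motif matches. In the shares given here a gene was counted if any of its starts had a match.
CHAC1: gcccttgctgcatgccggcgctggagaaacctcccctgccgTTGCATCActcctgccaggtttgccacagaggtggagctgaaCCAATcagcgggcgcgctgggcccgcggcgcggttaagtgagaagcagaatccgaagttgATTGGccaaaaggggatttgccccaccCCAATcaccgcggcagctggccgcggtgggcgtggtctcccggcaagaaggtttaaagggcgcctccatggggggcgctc
ASNS: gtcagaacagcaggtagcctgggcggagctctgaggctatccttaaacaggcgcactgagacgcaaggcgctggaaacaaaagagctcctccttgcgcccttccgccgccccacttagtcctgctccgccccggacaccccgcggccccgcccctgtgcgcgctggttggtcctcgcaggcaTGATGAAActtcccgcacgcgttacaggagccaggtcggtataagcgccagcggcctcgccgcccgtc
TGATGNAA was found in 3.89% of all genes and in 4 of 21 ATF4 list genes. The last 2 are mitotic genes that were lower with licorice, KIF20A (chr5:138178862-138179111, plus strand) and PLK1 (chr16:23678639-23678888, plus strand). Capitals mark CCAAT, on the opposite strand in KIF20A, and the cell cycle motif TTTGAA, which is in PLK1 alone of this pair.
KIF20A: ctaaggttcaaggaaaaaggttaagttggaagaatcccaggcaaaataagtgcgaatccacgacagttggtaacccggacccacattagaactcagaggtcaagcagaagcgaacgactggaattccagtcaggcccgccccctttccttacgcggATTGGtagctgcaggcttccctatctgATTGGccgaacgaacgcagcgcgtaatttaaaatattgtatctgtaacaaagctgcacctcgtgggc
PLK1: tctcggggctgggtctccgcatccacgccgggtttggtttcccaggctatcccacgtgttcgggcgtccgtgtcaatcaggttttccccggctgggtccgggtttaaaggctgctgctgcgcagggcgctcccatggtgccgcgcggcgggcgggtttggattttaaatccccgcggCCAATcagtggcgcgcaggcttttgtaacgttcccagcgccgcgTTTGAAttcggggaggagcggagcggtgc
CCAAT was found in 17 of 19 mitotic list genes (89.5%) and 37.0% of all genes, and TTTGAA in 10 of 19 (52.6%) and 16.1%. The antioxidant motif TGACNNNGC of NRF2 was found in 5 of 21 NRF2 list genes (23.8%) and 13.2% of all genes. A match is a description of letters, not a bound site.

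Library totals were 22.9 to 27.3 M (mega-) expected counts for the 6 high-dose libraries and 19.4 to 30.9 M over all 60 libraries, and 4.38% to 6.01% of counts in the 6 came from the mitochondrial genome. Atractylodes high-dose replicate 1 stood apart from its group. Its counts differed from those of the other two replicates with a chi-square of 18.4 and 20.9 per degree of freedom, against 5.09 between the others and 2.49 to 4.29 among the licorice high-dose libraries. Licorice medium-dose replicate 3 likewise differed from its group (19.7 and 19.9, against 3.62 between the others). Several counts below are also given without them. The sample codes place licorice in set 3 and atractylodes in set 2, so set and extract cannot be told apart in the direct comparison. The difference of the dose responses (high over low dose, licorice minus atractylodes) stays within each set. Ginseng and poria extracts at low dose, which fall in the same sets, gave 0 called genes against each other with edgeR (0% of 17919 tested), with 679 at an unadjusted p under 0.05 and 2 called by DESeq2. The labels do not say whether replicates were separate cultures, so the p-values rest on variation among libraries that may be technical only.

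At high dose, cells given licorice expressed more of an already shared set of inflammatory genes than cells given atractylodes, and more NRF2 and ATF4 target genes. They expressed less of the mitotic, glycolytic and collagen genes. Calls come from edgeR's quasi-likelihood test over all 60 libraries and 17919 genes, at 0.05 after Benjamini-Hochberg adjustment. By this rule 3297 genes (18.4% of those tested) were called, 1616 higher (9.02%) and 1681 lower (9.38%) with licorice. Most differences were small: 74 genes were at least 2-fold higher and 89 at least 2-fold lower. The median log2 fold change over all genes was 0.001. Fitted on the 6 libraries alone, the test called 1258 genes. Without atractylodes replicate 1 it called 2594. In these bulk libraries fewer cells of a kind and less RNA per cell cannot be told apart.

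**Figure D1:**
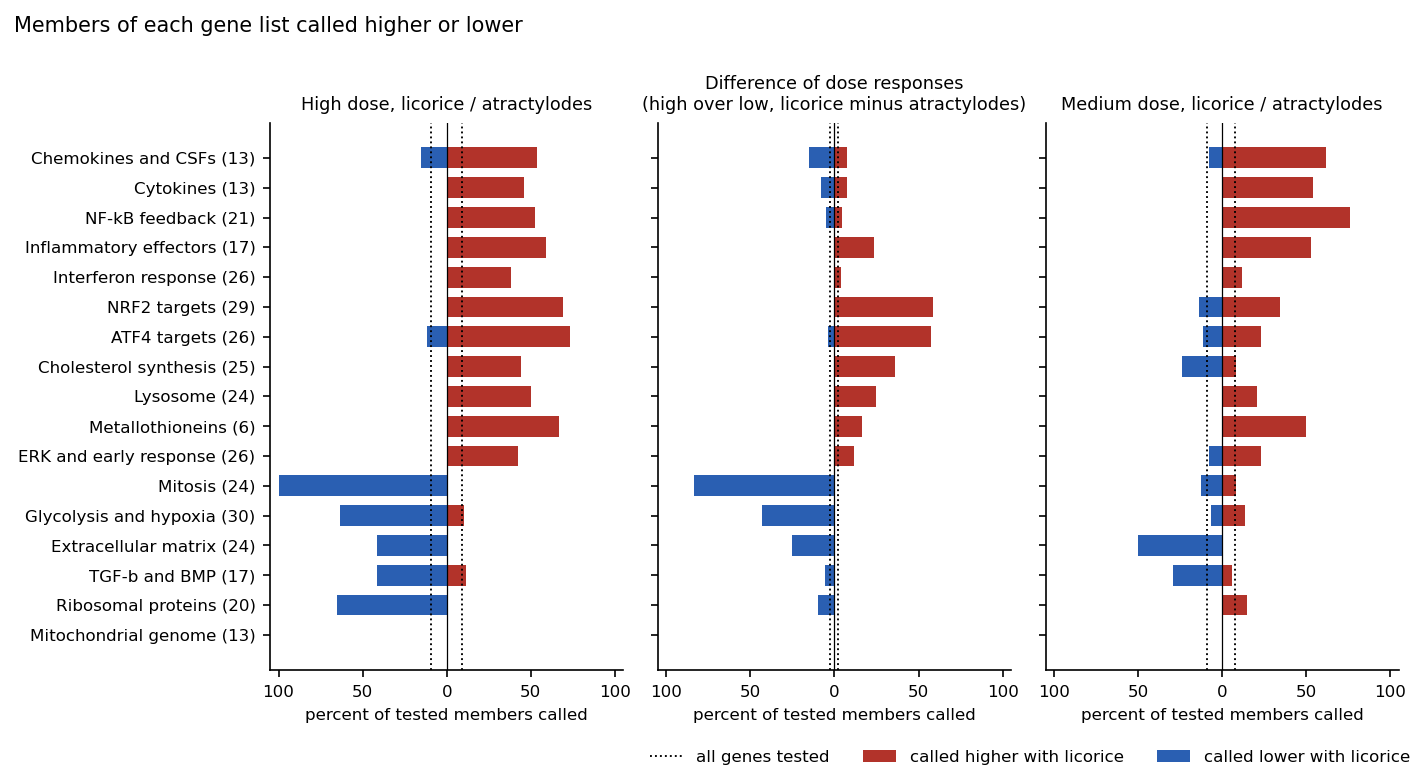
Percent of the tested members of each gene list (number tested in brackets) called higher (red, right) or lower (blue, left) with licorice than with atractylodes, at high dose, in the difference of dose responses and at medium dose. Dotted lines mark the percent of all genes tested. At high dose all 24 mitotic genes were called lower and 20 of 29 NRF2 targets higher, while at medium dose 2 mitotic genes were called higher and 3 lower, and 10 NRF2 targets higher and 4 lower.

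CSF3, which encodes granulocyte colony-stimulating factor (GRCh38 chr17:40015361-40017813), had the largest positive difference between the extracts among the genes named here. It had 17.1, 16.7 and 16.8 CPM (counts-per-million) in the licorice libraries, against 3.70, 3.71 and 3.28 in the atractylodes libraries, while vehicle libraries averaged 0.249 ± 0.121 (SD, n = 3). The groups did not overlap. The log2 fold change between the extracts was 2.24 ± 0.18 (SE, adjusted p = 7.7e-14, edgeR). CXCL3, a neutrophil chemokine, had 6.90, 7.71 and 8.64 CPM with licorice against 3.06, 2.82 and 3.32 with atractylodes. Again the groups were apart, by 1.34 ± 0.18 on the log2 scale (adjusted p = 1.9e-07). Its neighbour CXCL2 was higher by 0.87 ± 0.18 (adjusted p = 0.00029). For CXCL1 the 3 licorice libraries (8.10, 8.66 and 9.22 CPM) lay above the atractylodes libraries (7.44, 5.32 and 6.28 CPM), but the difference of 0.45 ± 0.22 was not called (adjusted p = 0.16, and 0.047 in the 6 libraries alone). These neighbours are near-copies, and how the expected counts shared reads between them was not tested.

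Over the list of NF-kB-linked chemokines and colony-stimulating factors, 7 of 13 tested members were called higher and 2 lower, with a median log2 fold change of 0.37. The 2 that were lower were CCL2 and CXCL12, which attract monocytes and lymphocytes. CCL2 had 71.9, 67.3 and 70.1 CPM with licorice and 104, 86.5 and 101 with atractylodes, a difference of -0.48 ± 0.07 (adjusted p = 4.1e-06). Every licorice library was below every atractylodes library, though both extracts stood above vehicle at 36.0 ± 0.422 CPM (SD, n = 3). CXCL12 averaged 6.94 ± 0.510 CPM with licorice and 11.4 ± 0.647 with atractylodes (log2 difference -0.72 ± 0.08, adjusted p = 3.8e-10). CXCL8, a neutrophil chemokine, was nearly level: 227, 250 and 241 CPM with licorice against 241, 192 and 192 with atractylodes. These values overlapped, and the difference was 0.20 ± 0.07 (adjusted p = 0.025).

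Among cytokines, 6 of 13 tested were called higher and 0 lower. IL1B, the secreted ligand that itself activates NF-kB through the interleukin-1 receptor, had 35.7, 38.4 and 36.6 CPM with licorice against 16.5, 16.0 and 15.1 with atractylodes. The licorice values were all above the atractylodes values, by 1.22 ± 0.09 (adjusted p = 1.2e-15). IL1A, the companion ligand at the same receptor, was higher by 1.21 ± 0.19 (adjusted p = 1.9e-06). IL6 had 54.3, 53.8 and 56.6 CPM against 33.9, 31.6 and 34.0 CPM, again without overlap (0.73 ± 0.08, adjusted p = 4.4e-10).

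Regulators of NF-kB itself moved the same way: 11 of 21 feedback genes were called higher and 0 lower, with a median of 0.34. TRAF1, a signalling adaptor, differed by 0.73 ± 0.07, the A20 deubiquitinase gene TNFAIP3 by 0.62 ± 0.07, and NFKB2, the precursor of the p52 subunit, by 0.42 ± 0.05 (adjusted p at most 5.5e-10). NFKBIA, the main IkB inhibitor, had 115, 115 and 118 CPM with licorice against 114, 92.7 and 100 with atractylodes. That difference was small (0.18 ± 0.06, adjusted p = 0.021). Of 17 inflammatory effectors 10 were called higher and 0 lower. The adhesion molecule ICAM1 had 414, 390 and 382 CPM with licorice against 252, 250 and 262 with atractylodes. The groups were far apart relative to their spread (0.63 ± 0.04, adjusted p = 1.4e-17). The mitochondrial superoxide dismutase SOD2 differed by 0.69 ± 0.05 and complement C3 by 0.74 ± 0.06 (adjusted p at most 3.9e-13).

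**Figure D2:**
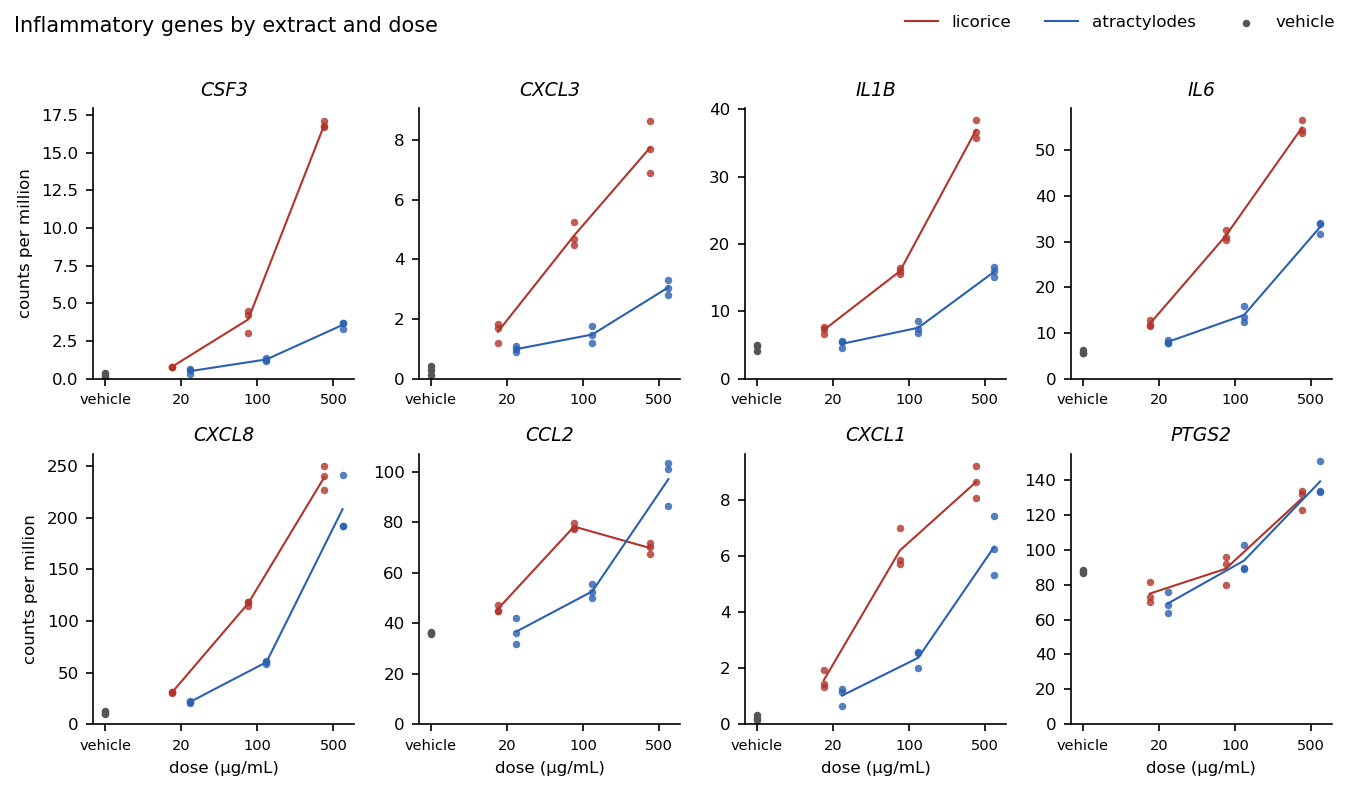
CPM of 8 inflammatory genes in each library, by dose of licorice (red) and atractylodes (blue), offset sideways for sight, with vehicle (grey); lines join the means. CSF3 and IL1B were apart at the high dose, CXCL8 and PTGS2 were close there, and CCL2 was higher with licorice at 100 µg/mL and lower at 500 µg/mL.

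Some dose-responsive genes were not called between the extracts. The rule for these took genes called in the dose contrast (500 over 20 µg/mL) of both extracts and not called between them at high dose. PTGS2, which encodes the inducible cyclooxygenase, had 132, 134 and 123 CPM with licorice against 151, 134 and 134 with atractylodes. These overlapped, and the difference was -0.10 ± 0.07 (adjusted p = 0.36). The lysosomal protease CTSS (0.20 ± 0.10), the axonal adaptor FEZ1 (-0.03 ± 0.10), the neuronal pentraxin NPTX1 (0.05 ± 0.09), the BMP antagonist GREM1 (0.04 ± 0.08) and the annexin ANXA8 (0.13 ± 0.10) were not called either. TNFRSF9, a receptor of the tumour necrosis factor family, differed by 0.46 ± 0.19 (adjusted p = 0.085, and 0.037 with no filter on low counts). A p above the threshold does not show that levels were equal.

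The dose contrasts of the 2 extracts use no library in common. Licorice changed 3255 genes between 20 and 500 µg/mL (18.2% of those tested), 9.02% higher and 9.14% lower, and atractylodes changed 734 (4.1%), 2.24% higher and 1.86% lower. Both called 487 genes, which is 15.0% of the licorice calls and 66.3% of the atractylodes calls. Of these, 270 were higher at high dose with both, 203 were lower with both, and 14 moved in opposite directions. Among the 270, the median log2 change was 0.50 with licorice and 0.39 with atractylodes, and 187 changed more with licorice. The atractylodes count was 442 without its high-dose replicate 1, 432 and 480 without low-dose replicates 2 and 3, and 151 in its 6 libraries alone.

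**Figure D3:**
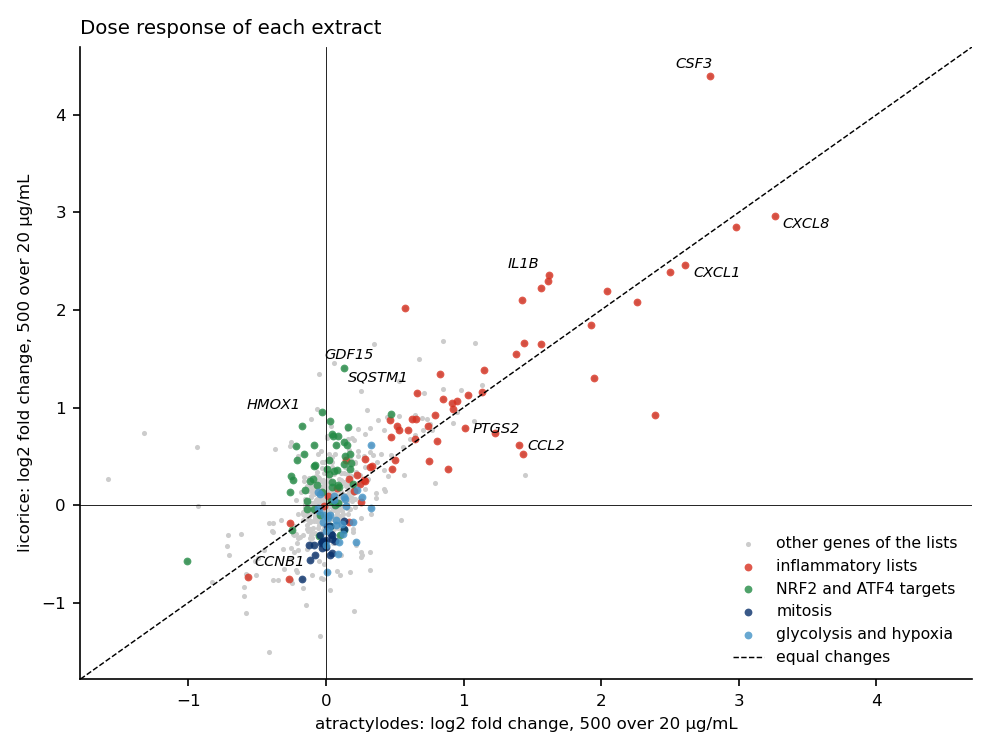
Log2 fold change between 500 and 20 µg/mL for genes of the lists, licorice (vertical) against atractylodes (horizontal); the dashed line marks equal changes. Inflammatory genes (red) lie high on both axes, with CSF3 at 4.40 and 2.79, while NRF2 and ATF4 targets (green) spread upward with licorice near 0 on the atractylodes axis.

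The difference of the dose responses was called for 900 genes (5.02%), 414 higher with licorice (2.31%) and 486 lower (2.71%). Of the inflammatory lists, 1 of 13 chemokines was called higher and 2 lower, 1 of 13 cytokines higher and 1 lower, 1 of 21 feedback genes higher and 1 lower, and 4 of 17 effectors higher. Leaving out single libraries moved each of these counts by at most 1. CSF3 and IL1B were among those called, at 1.60 ± 0.39 and 0.74 ± 0.14 (adjusted p = 0.0059 and 0.0006). CCL2 responded less to licorice dose than to atractylodes dose, with a difference of -0.79 ± 0.11 (adjusted p = 3.2e-06). BIRC3, an apoptosis inhibitor induced by NF-kB, likewise gave -0.49 ± 0.11 (adjusted p = 0.0027). Its level at high dose was nevertheless higher with licorice (46.4, 50.1 and 49.9 CPM against 31.5, 33.9 and 34.0 CPM). The contrast subtracts the extract difference at low dose, where the inflammatory lists already leaned higher with licorice. Median log2 differences there were 0.51 for chemokines, 0.35 for cytokines, 0.26 for feedback genes and 0.25 for effectors. Called higher at low dose were 6 feedback genes, 5 effectors, 1 chemokine and 1 cytokine, with 0 lower, against 0.117% of all genes. Few calls in this contrast therefore do not show a lack of licorice excess.

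Much of the inflammatory difference was already present at the medium dose of 100 µg/mL, where 2949 genes were called between the extracts (16.5%), 1381 of them higher with licorice (7.71%) and 1568 lower (8.75%). Chemokines had 8 of 13 called higher and 1 lower there, with a median log2 difference of 0.96. The lower one was CXCL12 (-0.21 ± 0.07, adjusted p = 0.037), and the count of lower chemokines was 0 without licorice replicate 3 or any atractylodes replicate. Feedback genes had 16 of 21 called higher, with a median of 0.52. CXCL8 had 118, 118 and 115 CPM with licorice against 61.5, 60.1 and 58.6 with atractylodes at 100 µg/mL. The groups were well separated there (0.96 ± 0.07, adjusted p = 5.9e-15), unlike at 500 µg/mL. IL6 differed by 1.16 ± 0.09 at medium dose and NFKBIA by 0.67 ± 0.06. CCL2 was higher with licorice at 100 µg/mL (77.5, 77.7 and 79.7 CPM against 50.1, 52.2 and 55.6 CPM), the reverse of its order at 500 µg/mL. At the low dose of 20 µg/mL 29 genes were called (0.162%), 21 higher (0.117%) and 8 lower (0.0446%), among them CXCL8 (0.51), IL6 (0.57) and NFKBIA (0.33), all higher with licorice. The medium-dose count was 794 without licorice replicate 3, 1549 and 1850 without atractylodes replicates 1 and 2, and 260 in the 6 medium-dose libraries alone. Feedback genes called higher then numbered 13 without licorice replicate 3 and 12 in that smaller fit.

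The change of the extract difference between medium and high dose was tested as a contrast of its own, added after these values had been seen. It called 1201 genes (6.7%), 510 higher (2.85%) and 691 lower (3.86%) at high dose relative to medium dose. The licorice excess narrowed for CXCL8 (-0.76 ± 0.10) and IL6 (-0.44 ± 0.12), and it turned over for CCL2 (-1.05 ± 0.11, adjusted p = 4.0e-07, 0.018 and 5.2e-09 for the 3). For NFKBIA it changed by -0.48 ± 0.08 (adjusted p = 0.00012). The count rested on single libraries: it was 340 without atractylodes high-dose replicate 1, 364 without licorice medium-dose replicate 3, 629 and 630 without atractylodes medium-dose replicates 1 and 2, and 686 without licorice high-dose replicate 2. It was 2121 without atractylodes high-dose replicate 2 and 2237 without licorice medium-dose replicate 2. In the 12 libraries alone 49 genes were called, and CXCL8 and CCL2 were among them, whereas IL6 (adjusted p = 0.12) and NFKBIA (adjusted p = 0.078) were not.

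**Figure D4:**
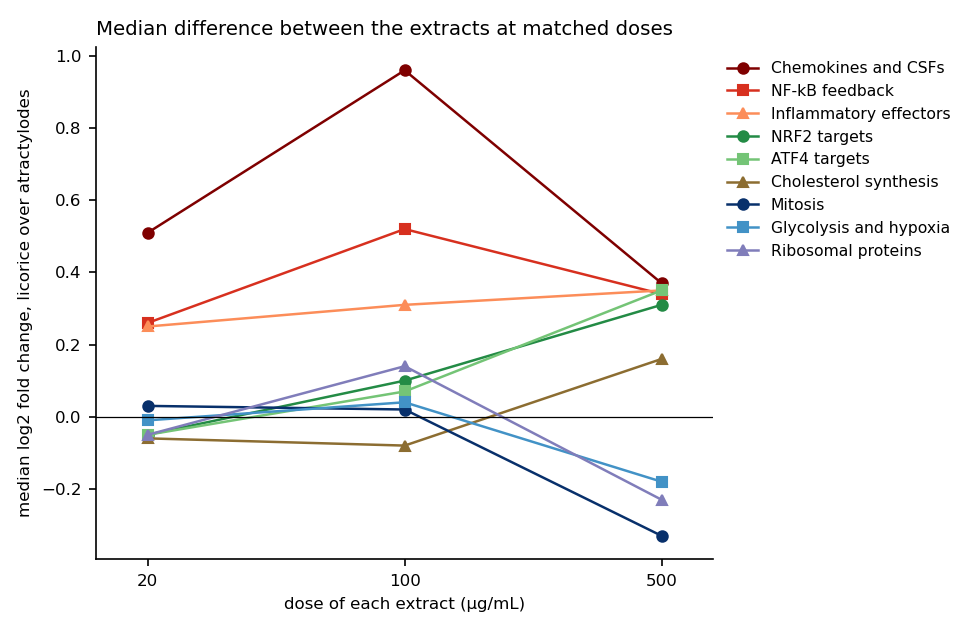
Median log2 fold change of each gene list, licorice over atractylodes, at matched doses of 20, 100 and 500 µg/mL. Chemokines peak at 0.96 at the medium dose, whereas NRF2 and ATF4 targets separate upward (0.31 and 0.35) and mitotic genes downward (-0.33) at the high dose.

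NRF2 target genes responded to the dose of licorice, with 19 of 29 called higher and 1 lower at 500 than at 20 µg/mL, against 2 higher and 2 lower for atractylodes. Between the extracts, of 29 tested, 20 were called higher and 0 lower at high dose, with a median of 0.31, and the difference of dose responses was called higher for 17. Against vehicle 21 were called higher and 4 lower with licorice (15.9% and 15% of all genes). With atractylodes 8 were called higher and 7 lower (7.24% and 6.63% of all genes), and 2 and 1 with those groups fitted alone. HMOX1, the haem-degrading enzyme haem oxygenase 1 (GRCh38 chr22:35380361-35394214), had 159, 138 and 132 CPM with licorice against 82.4, 69.2 and 72.8 with atractylodes, and vehicle libraries averaged 84.1 ± 0.757 (SD, n = 3). Licorice libraries were all above the rest, and atractylodes libraries lay below the vehicle mean. The log2 difference between the extracts was 0.94 ± 0.07 (adjusted p = 2.7e-15), against 0.10 ± 0.07 at medium dose (adjusted p = 0.37). The change from medium to high dose, 0.84 ± 0.10, was called (adjusted p = 5.1e-08).

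SQSTM1, which encodes the autophagy adaptor p62 and is itself induced by NRF2 (GRCh38 chr5:179806398-179838078), had 1571, 1501 and 1532 CPM with licorice against 797.9, 715 and 701 with atractylodes. No values overlapped, and the difference of 1.06 ± 0.04 had the adjusted p 8.7e-26. Against vehicle SQSTM1 was higher with licorice (1.46 ± 0.04) and also with atractylodes (0.40 ± 0.04, adjusted p = 3.2e-10, edgeR). It was counted in the lysosomal list below and not among the 29 NRF2 targets. The ferritin heavy chain FTH1, which stores iron, had 2672, 2439 and 2424 CPM against 1800, 1578 and 1672 CPM (0.58 ± 0.06). The redox-sensitive growth inhibitor OSGIN1 (0.66 ± 0.07) and the haem transporter SLC48A1 (0.61 ± 0.06) were higher to a like extent. The quinone reductase NQO1 (0.38 ± 0.05), the thioredoxin reductase TXNRD1 (0.40 ± 0.05) and the glutathione synthesis subunit GCLM (0.33 ± 0.04) differed less (adjusted p at most 1.1e-07 for these 6). Between the extracts at least 18 members were called higher whichever high-dose library was left out. At medium dose 10 were called higher and 4 lower, against 6 and 1 without licorice replicate 3 and 3 and 0 in the medium-dose libraries alone.

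ATF4 targets followed, with 19 of 26 called higher and 3 lower (median 0.35), and 15 higher and 1 lower in the difference of dose responses. Against vehicle 17 were called higher and 2 lower with licorice, and 4 higher and 0 lower with atractylodes. GDF15, a circulating stress cytokine, had 12.3, 10.9 and 11.5 CPM with licorice against 5.23, 3.68 and 4.16 with atractylodes. Atractylodes libraries were near vehicle, at 4.36 ± 0.746 CPM, and licorice libraries stood apart (1.41 ± 0.11, adjusted p = 3.3e-14). Asparagine synthetase, ASNS, had 83.4, 90.0 and 91.1 CPM against 55.8, 53.9 and 54.8 CPM (0.69 ± 0.05, adjusted p = 9.7e-15). The paired subunits of an amino acid exchanger, SLC7A5 and SLC3A2, were higher by 0.54 ± 0.04 and 0.63 ± 0.06, and the glutathione-degrading enzyme CHAC1 by 0.73 ± 0.17 (adjusted p = 7.7e-14, 9.5e-13 and 0.0014). Among the 3 that were lower were the amino acid transporter SLC38A2 (-0.41 ± 0.05) and DDIT4, an inhibitor of mTORC1 (-0.56 ± 0.10). At medium dose 6 targets were called higher and 3 lower, against 2 and 2 without licorice replicate 3 and 3 and 1 in the medium-dose libraries alone.

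**Figure D5:**
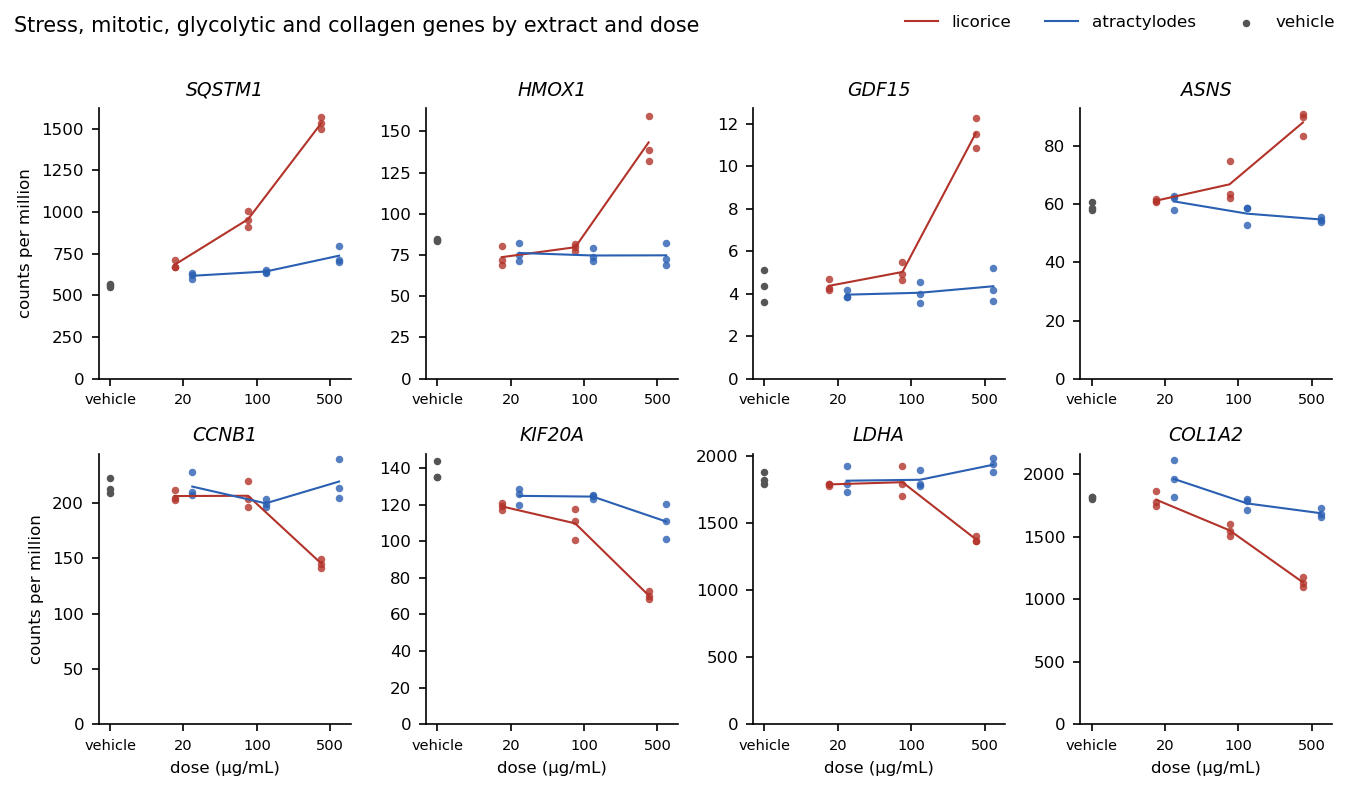
CPM of 8 genes of stress, mitosis, glycolysis and collagen in each library, by dose of licorice (red) and atractylodes (blue), offset sideways for sight, with vehicle (grey); lines join the means. HMOX1 and GDF15 were raised in the 3 licorice libraries at 500 µg/mL, and CCNB1 and LDHA were lowered there, while atractylodes stayed near its lower doses.

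Mitotic genes were lower with licorice: 24 of 24 tested were called, with a median of -0.33, and 20 were called lower in the difference of dose responses. CCNB1, the cyclin that drives entry into mitosis, had 142, 149 and 145 CPM with licorice against 240, 214 and 205 with atractylodes. Vehicle libraries averaged 215 ± 6.94 CPM, so for this gene the licorice libraries were low and the atractylodes libraries near vehicle (-0.60 ± 0.06 between the extracts, adjusted p = 1.3e-11). KIF20A, a kinesin needed for cytokinesis, had 72.9, 68.5 and 70.0 CPM against 101, 111 and 120 CPM (-0.65 ± 0.05, adjusted p = 9.7e-15). The mitotic kinases PLK1 and BUB1 were lower by -0.52 ± 0.06 and -0.41 ± 0.04 (adjusted p at most 1.8e-09). Against vehicle 22 of 24 were called lower with licorice (15% of all genes were) and 10 of 24 with atractylodes (6.63% of all genes). The atractylodes count included KIF20A (-0.32 ± 0.05, adjusted p = 3.55e-06) and PLK1 (-0.31 ± 0.06, adjusted p = 0.00013), and it was 6 without atractylodes replicate 1 and 3 in the 6 libraries alone. At medium dose 2 were called higher and 3 lower; with single libraries left out the counts were 0 to 5 in either direction, and both were 0 in the medium-dose libraries alone. Of the 24, 21 were called lower in the change from medium to high dose, with CCNB1 at -0.65 ± 0.08 and KIF20A at -0.47 ± 0.07. The count of 21 was 6 in the 12 libraries alone and 18 to 21 with any library left out. Genes of DNA replication did not follow: 5 of 22 S-phase genes were called higher and 0 lower at high dose, with 3 higher without licorice replicate 2 and 2 in the 6 libraries alone.

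Glycolytic and hypoxia-linked genes were mostly lower, with 19 of 30 called lower and 3 higher (median -0.18), and 13 lower in the difference of dose responses. Lactate dehydrogenase LDHA had 1368, 1403 and 1365 CPM with licorice against 1985, 1936 and 1882 with atractylodes. Each licorice library was below each atractylodes library (-0.49 ± 0.04, adjusted p = 1.1e-14), and the change from medium to high dose was -0.47 ± 0.05 (adjusted p = 2.9e-08). Phosphoglycerate kinase PGK1 was lower by -0.43 ± 0.04, the mitophagy receptor BNIP3 by -0.53 ± 0.05 and carbonic anhydrase CA9 by -0.64 ± 0.07 (adjusted p at most 1.9e-10). BNIP3 and CA9 are known targets of hypoxia-inducible factors. In the 6 libraries alone 10 members were called lower and 1 higher, and in the 12 libraries of the dose contrasts alone 8 were lower in the difference of dose responses. The higher count was 1 without atractylodes replicate 3 or licorice replicate 3. Against vehicle 16 of 30 were called lower and 7 higher with licorice (15% and 15.9% of all genes). With atractylodes 1 was lower and 10 higher (6.63% and 7.24% of all genes), and 3 were higher with those groups fitted alone. PGK1, BNIP3 and CA9 were lower than vehicle with licorice (-0.25, -0.30 and -0.45) and higher with atractylodes (0.18, 0.23 and 0.18). LDHA was lower with licorice (-0.41) and not called with atractylodes (0.08).

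Sterol and lysosomal genes were also higher with licorice. Of 25 cholesterol synthesis genes 11 were called higher and 0 lower (median 0.16), against 2 higher and 6 lower at medium dose. The medium-dose counts were 0 and 3 without licorice replicate 3, 0 and 4 or 0 and 5 without atractylodes replicate 1 or 2, and 0 and 1 in those libraries alone. The sterol synthesis enzymes DHCR7 and CYP51A1 and the sterol-sensing factor gene SREBF2 were higher by 0.43 ± 0.05, 0.39 ± 0.04 and 0.29 ± 0.04 (adjusted p at most 2.6e-07). Lysosomal genes had 12 of 24 called higher, among them SQSTM1, given above. Others were the cholesterol exporter NPC1 (0.42 ± 0.05), acid alpha-glucosidase GAA (0.34 ± 0.05) and cathepsin D, CTSD (0.26 ± 0.04, adjusted p at most 3.5e-06). That count was 7 without licorice replicate 1, and in the 6 libraries alone it was 6, with 5 for cholesterol synthesis. The metal-binding metallothioneins had 4 of 6 called higher, with the smallest p for MT1X (33.2, 35.1 and 34.1 CPM against 23.4, 17.9 and 22.6 CPM, 0.68 ± 0.08, adjusted p = 4.4e-09) and then MT1E (0.62 ± 0.10, adjusted p = 2.0e-05). The largest fold was that of the low-level MT1A, at 0.926, 0.563 and 0.756 CPM against 0.322, 0.196 and 0.200 CPM (adjusted p = 0.011, and 0.055 without licorice replicate 1). Metallothionein genes are near-copies, so how counts were split among them is uncertain. In the difference of dose responses 9 cholesterol synthesis genes, 6 lysosomal genes and 1 metallothionein gene were called higher, with 0 lower in each list.

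Matrix genes were lower: 10 of 24 were called lower and 0 higher at high dose, and 12 lower at medium dose. The high-dose count was 5 in the 6 libraries alone. The medium-dose count was 4 without licorice replicate 3 and 1 in those libraries alone. Against vehicle 16 of 24 were called lower and 1 higher with licorice (15% and 15.9% of all genes). With atractylodes 8 were lower and 2 higher (6.63% and 7.24% of all genes). Its lower count was 5 to 11 with any library left out and 2 with those groups fitted alone. COL1A2, a chain of type I collagen, had 1177, 1126 and 1098 CPM with licorice against 1682, 1725 and 1655 with atractylodes. The licorice values were all below (-0.57 ± 0.05, adjusted p = 4.5e-13). Its partner chain COL1A1 differed by -0.28 (adjusted p = 3.2e-05, and 0.066 in the 6 libraries alone), and its 3108 CPM in licorice replicate 1 exceeded the 3083 CPM of atractylodes replicate 1. The glycoproteins THBS1 and THBS2 were lower by -0.42 ± 0.05 and -0.30 ± 0.05 (adjusted p = 4.1e-09 and 5.3e-06). Genes of the TGF-beta and BMP pathway had 7 of 17 called lower and 2 higher, with 4 lower in the 6 libraries alone. ID1 and ID2, which BMP signals induce, were lower by -0.57 ± 0.09 and -0.48 ± 0.09, while the activin subunit INHBA was higher by 0.39 ± 0.06 (adjusted p at most 2.1e-05). Ribosomal protein genes had 13 of 20 called lower, with a median of -0.23. That count was 5 in the 6 libraries alone and 6 without atractylodes replicate 1, in which RPL3 reached 854 CPM against 682 and 688 in the other two, and 516, 552 and 548 with licorice. The 13 protein-coding genes of the mitochondrial genome had 0 called, against 18.4% of all genes. In the difference of dose responses 6 matrix genes, 1 TGF-beta and BMP gene and 2 ribosomal protein genes were called lower, with 0 higher in each list.

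Between the extracts, interferon-response genes had 10 of 26 called higher and 0 lower, but this count rested on 1 library. Without licorice replicate 3 it was 3, without atractylodes replicate 2 it was 6, and in the 6 libraries alone it was 6. Against vehicle 24 of 26 were called higher with licorice (15.9% of all genes) and 8 with atractylodes (7.24%), with 0 lower for either. With any library left out the licorice count was 18 to 23 and the atractylodes count 5 to 7. In the difference of dose responses 1 was called higher and 0 lower. MX2, an antiviral GTPase, had 7.13, 6.84 and 13.4 CPM with licorice against 5.59, 3.95 and 4.04 with atractylodes. The high value of licorice replicate 3 stood apart, and the difference of 1.02 ± 0.32 (adjusted p = 0.019) was 0.63 without that library (adjusted p = 0.26). IFIT3 was higher by 0.48 ± 0.12, IRF7 by 0.48 ± 0.13 and IFI35 by 0.36 ± 0.08 (adjusted p = 0.0031, 0.0043 and 0.00039). Of 24 genes of Toll-like receptor signalling 7 were called higher and 1 lower, with 4 and 0 in the 6 libraries alone. LY96, the MD-2 co-receptor of TLR4, had 11.5, 13.8 and 13.9 CPM against 10.2, 8.64 and 8.88 CPM (0.50 ± 0.11, adjusted p = 0.00074), and the kinase gene IRAK2 was higher by 0.45 ± 0.05. Early-response and ERK feedback genes had 11 of 26 called higher, with DUSP6, DUSP5, SPRY4 and DUSP4, which restrain ERK signalling, between 0.25 and 0.54. That count was 7 without atractylodes replicate 2, licorice replicate 2 or licorice replicate 3, and 6 in the 6 libraries alone. In the difference of dose responses 3 early-response and ERK feedback genes were called higher, and 0 with those groups fitted alone. For the Toll-like receptor genes it was called higher for 1. Against vehicle, DUSP6 and DUSP4 were called higher with licorice (0.37 ± 0.06 and 0.35 ± 0.05) and not called with atractylodes (-0.16 ± 0.06 and 0.10 ± 0.05). SPRY4 and DUSP5 were not called with licorice (0.04 ± 0.07 and 0.15 ± 0.08) and were lower than vehicle with atractylodes (-0.34 ± 0.07 and -0.31 ± 0.08).

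The largest positive differences between the extracts also included genes outside these groups. ATP2A3, a calcium pump of the endoplasmic reticulum, had 6.83, 6.45 and 7.81 CPM with licorice against 2.53, 2.46 and 2.44 with atractylodes. The groups were far apart (1.5 ± 0.14, adjusted p = 3.1e-12), and its difference of dose responses was 1.3 ± 0.22. The tight-junction protein CLDN1 (21.9, 22.1 and 21.5 CPM against 9.61, 10.6 and 10.8 CPM) was higher by 1.08 ± 0.09, the adaptor FYB1 by 1.08 ± 0.11, the kinase SIK1 by 1.01 ± 0.09 and IGFN1 by 1.27 ± 0.14 (adjusted p at most 3.9e-09). CLDN1 had risen with both extracts, since vehicle libraries averaged 4.06 ± 0.216 CPM. SIK1 with atractylodes (13.4, 14.3 and 16.0 CPM) was instead below its vehicle level of 17.7 ± 1.09 CPM (-0.28 ± 0.09, adjusted p = 0.035, edgeR). The antisense transcript ZMIZ1-AS1 (1.35 ± 0.13) also ranked here. So did the readthrough transcript CFAP298-TCP10L (1.42 ± 0.34, adjusted p = 0.0023), which averaged 7.49 ± 1.16 CPM with licorice, 2.81 ± 1.15 with atractylodes and 8.16 ± 0.794 with vehicle. It was lower with atractylodes than with vehicle (-1.53 ± 0.33, adjusted p = 0.0015) and not called between licorice and vehicle (-0.12 ± 0.29, adjusted p = 0.80). The library kit keeps strand, but whether counting used it is not stated in the labels, so both are uncertain.

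Among the largest negative differences, VAV3, a guanine nucleotide exchange factor (GRCh38 chr1:107571160-107965144), had 2.85, 2.90 and 2.34 CPM with licorice against 7.68, 6.53 and 7.60 with atractylodes. No values overlapped (-1.43 ± 0.14, adjusted p = 1.5e-11). FGF13, an intracellular growth-factor homologue that binds sodium channels (GRCh38 chrX:138614731-139222777), had 12.7, 12.1 and 12.4 CPM against 28.8, 26.2 and 27.3 CPM. Atractylodes left it near its vehicle level of 28.9 ± 0.779 CPM, and licorice held it well below (-1.14 ± 0.05, adjusted p = 5.4e-23). The neuronal tubulin TUBB3 was lower by -0.82 ± 0.05, the heparan sulfate sulfotransferase HS6ST3 by -0.87 ± 0.10, the calcium channel subunit CACNG4 by -0.84 ± 0.12 and TRIM66 by -0.86 ± 0.17 (adjusted p at most 0.00018). The non-coding host transcripts MIR100HG, SNHG5 and MIR210HG were lower by -0.97 ± 0.06, -0.92 ± 0.12 and -0.80 ± 0.11. SNHG5 had 43.6 CPM in atractylodes replicate 1, against 33.5 and 31.4 in the other two. The interferon gene IFNE (-1.02 ± 0.16), the histone gene H2AC6 (-1.03 ± 0.12), the intronic transcript NKAIN3-IT1 (-1.44 ± 0.12), the readthrough TMED7-TICAM2 (-0.80 ± 0.15) and the pseudogene IFNWP19 (-0.96 ± 0.13) were also in this group. Reads of the last 4 can be shared with near-copies or overlapping genes.

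Against vehicle, licorice at high dose changed 5545 genes (30.9%; 15.9% higher and 15% lower) and atractylodes 2485 (13.9%; 7.24% higher and 6.63% lower). Both use the same 3 vehicle libraries. The atractylodes count was 905 without its replicate 1, and 1460 and 1423 without vehicle replicates 1 and 3. The astroglial markers VIM, CD44, GJA1 and SOX9 were expressed, with VIM at 4393 to 4702 CPM with licorice and 5411 to 5932 CPM with atractylodes. Of 13 astroglial markers 8 passed the filter on low counts. In each of the 6 libraries GFAP, AQP4 and ALDH1L1 had 0 or 1 count, S100B 0 to 4 and FABP7 0. With some markers expressed and others near 0, this list does not decide whether the cell label is right. Of 15 markers of epithelial, endothelial and blood cells 7 passed, and their summed level was 342 to 377 CPM with licorice, 328 to 333 with atractylodes and 420 to 429 with vehicle. Of 14 neuronal, oligodendroglial and microglial markers 7 passed, with a summed level of 85.5 to 91.1 CPM with licorice, 126 to 143 with atractylodes and 150 to 153 with vehicle. Most of this sum was TUBB3, which averaged 56.3, 99.6 and 119.5 CPM in these groups. The median log2 difference of the 7 between the extracts was 0.06, with 0 called higher and 2 lower. Against vehicle 3 of the 7 were called higher and 2 lower with licorice, and 0 higher and 1 lower with atractylodes. The macrophage and lysosomal marker CD68 was called higher with licorice, and KRT18 and PTPRC lower; their part in the results was not tested.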

How the data were processed

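Total RNA of SW1783 cells was sequenced as 100 bp paired-end reads from a directional library kit, per the labels' protocols. The authors deposited expected counts per gene, which are estimates and not normalized; per the submitters' processing notes RSEM 1.3.3, STAR 2.7.3a, Trim Galore 0.6.5 and FastQC 0.11.9 were used, with build GRCh38 (hg38). Neither the annotation release nor the strand setting is stated in the labels. Of 279 sample columns, 60 matched a sample and 219 were not used; genes with no symbol held 0.0341% of counts.

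Counts were rounded (9.48% of values were not whole, tolerance 1e-06). Genes were kept by filterByExpr (minimum count 10, total 15), which left 17919, and scaled by TMM. A model over all 60 libraries with 1 mean per group was fitted by edgeR 4.0.16 (glmQLFit, robust; R 4.3.3) with limma 3.58.1 loaded, and contrasts were tested by glmQLFTest with Benjamini-Hochberg adjustment over all genes. SE is the log2 fold change divided by the square root of F. CPM values in the text are scaled levels and compare libraries, not genes. DESeq2 1.42.0, RLE size factors, no filter, a replicate block, the groups compared alone and each library left out were alternatives. On simulated counts of the direct comparison (17919 genes), the test recovered 59.7% of genes changed 1.25-fold, 79.1% at 1.5-fold and 93.9% at 2-fold, with 5 false calls. The simulated libraries were independent draws with the fitted spread of each gene. They held no outlying library and no offset between sets, so the false calls do not measure the error in the real libraries.

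The extracts compared and the 41 gene lists were chosen with earlier results of these data known. The text names the 15 largest differences in each direction among called genes whose groups do not overlap and whose mean reaches 5 CPM in either group, clone and locus names left out. It also names up to 4 list members with the smallest p in lists with many calls, members whose role a list turns on, and the 8 largest shared dose responses. Some results that this rule picked are not reported here.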

Additional observations from a re-analysis of the deposited data

Results flagged for a closer look

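The response to dose differed between the extracts for 900 genes (5.02% of those tested). The test was edgeR's, of licorice minus atractylodes, 500 over 20 µg/mL, at Benjamini-Hochberg adjusted p under 0.05. Among the 900 were 32 of 48 genes examined singly, 14 higher and 18 lower. Many of the 48 were picked for their difference between the extracts at high dose. The test reuses those high-dose libraries, so the 32 are not separate evidence. All values here are on the log2 scale. Stress genes responded more to licorice: GDF15 by 1.27, HMOX1 by 0.99, SQSTM1 by 0.91, ASNS by 0.68 and FTH1 by 0.64. So did the inflammatory genes CSF3 (1.60) and IL1B (0.74). CSF3 lost its call without atractylodes low-dose replicate 1 (adjusted p = 0.053). Other genes with a larger licorice response were ATP2A3 at 1.3, FYB1 at 1.00, IGFN1 at 0.82, SIK1 at 0.77 and CLDN1 at 0.58, with the uncertain transcript ZMIZ1-AS1 at 1.40. IGFN1 lost its call in 6 of 17 alternatives, with adjusted p = 0.23 in the groups alone. The uncertain transcript CFAP298-TCP10L had a difference of 2.06: its change with licorice dose was 0.74 (adjusted p = 0.098) and its change with atractylodes dose was -1.32 (adjusted p = 0.017).

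Mitotic, metabolic and collagen genes had a lower response to licorice: KIF20A gave -0.58, CCNB1 -0.54, LDHA -0.47 and COL1A2 -0.45. The NF-kB targets CCL2 (-0.79) and BIRC3 (-0.49) were on the same side. So were VAV3 (-1.09), FGF13 (-0.88), IFNE (-0.86), HS6ST3 (-0.78) and TUBB3 (-0.55), and the non-coding MIR100HG (-0.82), SNHG5 (-0.78) and MIR210HG (-0.74). The transcripts with uncertain reads were NKAIN3-IT1 (-1.29), IFNWP19 (-0.99), H2AC6 (-0.90) and TMED7-TICAM2 (-0.76). TMED7-TICAM2 lost its call in 6 of 17 alternatives, with adjusted p up to 0.076. IFNE lost its call in 1, without atractylodes low-dose replicate 2 (adjusted p = 0.056).

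The difference between the extracts also changed from 100 to 500 µg/mL, for 1201 genes in a test added after seeing the data. It moved up for GDF15 by 1.09 and HMOX1 by 0.84. It moved down for CCL2 (-1.05), CXCL8 (-0.76), CCNB1 (-0.65), NFKBIA (-0.48), KIF20A (-0.47), LDHA (-0.47) and IL6 (-0.44). In the groups alone KIF20A (adjusted p = 0.0505), NFKBIA (0.078) and IL6 (0.12) lost their calls. IL6 also lost its call without atractylodes high-dose replicate 1 and without atractylodes medium-dose replicates 1 and 2, with adjusted p up to 0.082.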

How the results depend on the processing

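Fitted on the groups compared alone, the counts were 1258 genes for the direct comparison (676 higher, 582 lower), 386 for the difference of dose responses, 260 at medium dose, 151 for the atractylodes dose, 586 for atractylodes against vehicle, 49 for the change from medium to high dose, and more for the licorice dose (4171, against 3255) and licorice against vehicle (6655, against 5545). Without the low-count filter, 131 genes were called at low dose and 103 for ginseng against poria; DESeq2 gave 2 for ginseng against poria. With each library left out, the direct count was 2476 to 3094 (1245 to 1495 higher, 1231 to 1601 lower), the difference of dose responses 654 to 947, medium dose 794 to 3824, low dose 18 to 26, ginseng against poria 0 to 0, the licorice dose 2483 to 2815, the atractylodes dose 432 to 888, licorice against vehicle 4361 to 4936, atractylodes against vehicle 905 to 2977, and the change from medium to high dose 340 to 2237. The causes were not tested.

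Replicate numbers do not pair the libraries of the direct comparison (correlations of deviations -0.022, -0.020 and -0.010). With the replicate block the counts were 3408 for the direct comparison, 961 for the difference of dose responses and 1328 for the change from medium to high dose. Over 144 named genes and all alternatives, 1537 values kept their direction and side of the threshold, 44 lost and 2 gained a call, and 0 reversed. MX2 and SOCS3 lost theirs in several settings.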
